A study of Mus musculus with 20 samples.

Results

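WT-only CAP-D3 peaks without CAP-H2 are places where the condensin II subunit CAP-D3 was called in wild-type (WT) mouse embryonic fibroblasts, with no CAP-D3 call nearby in Rb1L/L cells and no overlapping call of its partner subunit CAP-H2. A member of the class had no CAP-D3 peak of Rb1L/L cells within 1 kb and no overlap with a CAP-H2 peak of either genotype. Of the 17576 CAP-D3 peaks called in WT cells, 17192 lay on chromosomes 1 to 19, and 4392 of these met both conditions, which is 25.5% of the autosomal list. The distance condition alone was met by 7520 peaks (43.7%) and the CAP-H2 condition alone by 6336 (36.9%). The members were chosen from the peak calls of these 4 condensin II libraries. Their number, score, width and distance to CAP-D3 and CAP-H2 peaks are therefore given as a description with no test.

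Condensin II is a ring-shaped complex that compacts and organises chromosomes, and unlike condensin I it is in the nucleus throughout interphase. CAP-H2 is its kleisin subunit, which bridges the SMC ATPase heads, and CAP-D3 is a HEAT-repeat subunit that binds to the kleisin. The retinoblastoma protein pRb has a cleft that binds LXCXE motifs and has been reported to interact with CAP-D3. TFIIIC recognises the promoters of tRNA genes and recruits RNA polymerase III there, and it also binds sites where the polymerase is absent, and H3K27me3 is the histone mark of Polycomb repression.

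Chromatin immunoprecipitation followed by sequencing compared Rb1L/L fibroblasts, homozygous for the L allele that alters the LXCXE-binding cleft of pRb, with WT fibroblasts. All cells were proliferating C57BL/6 fibroblasts from E13.5 embryos, used at passage 4, with no treatment named in the labels. Both genotypes had 1 library each for CAP-D3 and CAP-H2, crosslinked first with EGS, which joins proteins, and then with formaldehyde. Both had 2 libraries each for H3K27me3, fixed in the same way, and 2 for TFIIIC, fixed with formaldehyde alone. Nothing in the labels ties the 2 libraries of a group to separate cultures, and p-values therefore measure only the spread between libraries, which may be technical. Peak lists hold no expression values, so the labelled cell type could not be checked against markers. Lists differed in length. TFIIIC had 294135 and 301874 peaks in Rb1L/L against 200350 and 239960 in WT, and H3K27me3 had 43951 and 56396 in Rb1L/L against 24741 and 45979 in WT. The number of reads behind them is unknown, and a place without a peak is one where none was called.

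The members were mostly weak and narrow peaks. The score deposited with each peak is the authors' own value and rises with the strength of the call. It had a median of 232 among the members and a range from 189 to 287 between the lower and upper quartiles, against a median of 783 for the 1944 WT CAP-D3 peaks that also lacked CAP-H2 but had an Rb1L/L peak within 1 kb. Few members were at the lower limit of the list, where the smallest score was 50.1: only 165 (3.76%) scored under 100. At the other end, 175 members (3.98%) scored at least 500 and 13 at least 1000. When the autosomal WT list was divided into 4 equal score bins, members made up 45.1% of the lowest bin, 46.2% of the second, 10.7% of the third and 0.0931% (4 peaks) of the highest. Their median width was 516 bp, with quartiles of 483 and 541 bp, while the shared peaks without CAP-H2 had a median of 758 bp and quartiles of 591 and 945 bp.

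**Figure D1:**
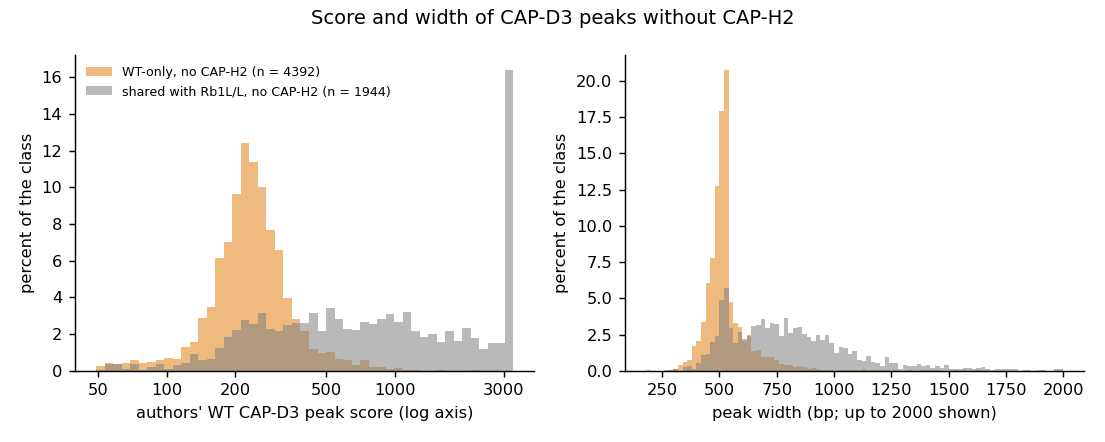
Distribution of the authors' WT CAP-D3 score (left, log axis) and of peak width in bp (right) for the 4392 WT-only peaks without CAP-H2 and the 1944 shared peaks without CAP-H2, as percent of each class. The members form a single narrow hump around a score of 232 and a width of 516 bp, and the shared peaks spread out to a last bar that holds the tied score of 3100. The widest peaks lie beyond the right end of the width axis and are not drawn.

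A mirror class was formed in the Rb1L/L list, where 3521 of 12926 autosomal CAP-D3 peaks (27.2%) had no WT peak within 1 kb. Of the 12926, 1674 (13%) also had no CAP-H2. Their median score was 391 and their median width 614 bp, with quartiles of 570 and 640.75 bp. Over the whole lists the median width was 811 bp in Rb1L/L and 642 bp in WT. Scores from the Rb1L/L and WT lists cannot be set against each other, because each depends on its own input and on the number of reads.

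The strongest member lay on chromosome 16 from 87611576 to 87612321 (mm9, as for all positions here) and had a WT CAP-D3 score of 2172. Its nearest Rb1L/L CAP-D3 peak was 23.9 kb away and its nearest CAP-H2 peaks 11.4 kb away in Rb1L/L and 11.1 kb away in WT, and apart from a weak TFIIIC peak in Rb1L/L library 1 (score 143) nothing else was called there. The second, on chromosome 4 from 125168650 to 125169587 (score 1563), overlapped H3K27me3 in all 4 libraries, each with the tied score of 3100, and had a TFIIIC peak in Rb1L/L library 2 alone (score 271). It lay close to the distance limit, as an Rb1L/L CAP-D3 peak was 1098 bp away. The third, on chromosome 13 from 34278966 to 34279806 (score 1220), had neither TFIIIC nor H3K27me3 in any library. The fourth, on chromosome 15 from 98885677 to 98886799 (score 1203), again carried H3K27me3 at a score of 3100 in all 4 libraries and no TFIIIC. Among the 12 members with the highest score, down to 1041, 3 had H3K27me3 in all 4 libraries and 7 in none, while 1 had TFIIIC in all 4 and 6 in none. Of all autosomal WT CAP-D3 peaks, 3.17% had H3K27me3 in all 4 and 89.5% in none. For TFIIIC these shares were 7.68% and 55.6%, near the counts among the 12.

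The scores on either side of the distance limit overlapped. The 3 members closest to an Rb1L/L CAP-D3 peak were 1018, 1020 and 1033 bp away, with scores of 171, 382 and 324. The 3 peaks without CAP-H2 that just failed the limit were 993, 969 and 963 bp away, with scores of 114, 245 and 168. Most members were far from the limit, since the median distance to the nearest Rb1L/L CAP-D3 peak was 75.1 kb and 1852 members (42.2%) had none within 100 kb. CAP-H2 was nearer, with a median distance of 27.6 kb to the Rb1L/L list and of 27.6 kb to the WT list. Its autosomal lists were longer, with 42626 peaks in Rb1L/L and 42174 in WT, against 12926 for Rb1L/L CAP-D3. A longer list lies nearer to any place by its length alone. A CAP-H2 peak lay within 1 kb of 204 members (4.64%) in Rb1L/L and of 198 (4.51%) in WT.

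Members were scattered over the autosomes. They were present in 1977 of the 2289 windows of 1 Mb that had any WT CAP-D3 peak, and 737 windows held a single one. When windows were put into 4 bins by the number of TFIIIC peaks in Rb1L/L library 1, from fewest to most, they held on average 1.62, 1.76, 1.98 and 1.91 members. With WT library 1 the averages were 1.60, 1.76, 1.89 and 2.02. The WT CAP-D3 peaks that were shared between genotypes and overlapped CAP-H2 were far denser where TFIIIC was dense, with averages of 0.51, 1.55, 3.56 and 7.11 over the same bins of Rb1L/L library 1 and of 0.49, 1.49, 3.45 and 7.29 over those of WT library 1. WT-only peaks with CAP-H2 averaged 0.43, 0.86, 1.41 and 2.46 for Rb1L/L library 1. Over bins by the number of H3K27me3 peaks, members averaged 1.44, 1.70, 1.94 and 2.12 by Rb1L/L library 1 and 1.49, 1.71, 1.88 and 2.11 by WT library 1. The mirror class of Rb1L/L peaks had 0.58, 0.64, 0.80 and 0.75 per window by TFIIIC in Rb1L/L library 1. These averages share their windows and carry no test.

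**Figure D2:**
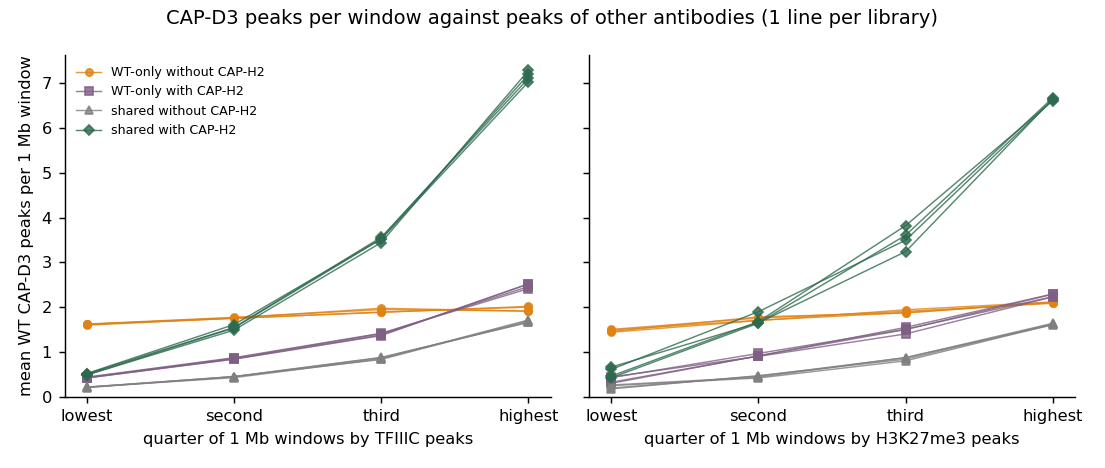
Mean number of WT CAP-D3 peaks per 1 Mb window (y axis) in 4 bins of windows ordered by the number of TFIIIC peaks (left) or H3K27me3 peaks (right), with 1 line for each of the 4 libraries of that antibody and 1 colour and marker for each class. The WT-only peaks without CAP-H2 stay between 1.44 and 2.12 per window, whereas shared peaks with CAP-H2 go from 0.49 in the lowest TFIIIC bin to 7.29 in the highest, both by WT library 1.

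Members made up a larger share of the CAP-D3 list where other peaks were few. Among WT CAP-D3 peaks in the bin with the fewest TFIIIC peaks around them, 46.5% and 46.3% were members by the Rb1L/L libraries and 46.6% and 46.3% by the WT libraries. In the bin with the most they were 13.6% and 13.4% by the Rb1L/L libraries and 13.0% and 13.3% by the WT libraries. The share of WT-only peaks with CAP-H2 was close in these bins, at 17.6% in the lowest and 18.6% in the highest by Rb1L/L library 1 and at 17.3% and 18.4% by WT library 1. In windows with 1 or 2 WT CAP-D3 peaks in all, 424 of 653 (64.9%) were members, and in windows with 21 to 58 peaks, 327 of 2688 (12.2%) were. The rule is easier to meet where Rb1L/L CAP-D3 and CAP-H2 peaks are few. Windows around members held a median of 17 CAP-H2 peaks in each genotype, against 28 around shared peaks with CAP-H2. The shares are therefore a description, and how far the rule itself sets them was not tested. A member's next WT CAP-D3 peak was at a median of 51.5 kb, against 25.4 kb for WT-only peaks with CAP-H2 and 24.9 kb for shared peaks without it. By chromosome, the members' share ran from 18.6% of WT CAP-D3 peaks on chromosome 17 (95% exact binomial interval 15.9 to 21.6) and 19.4% on chromosome 11 (17.3 to 21.8) to 30.6% on chromosome 16 (26.99 to 34.5) and 30.7% on chromosome 1 (28.0 to 33.4). This interval, like all binomial intervals here, covers counting error only.

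A few windows held many members. The window with the most members was on chromosome 4 from 146000001 to 147000000, where 22 of 29 WT CAP-D3 peaks were members, and its neighbour from 145000001 to 146000000 followed with 19 of 25. Their scores were low, with medians of 70.8 and 82.0. Rb1L/L cells had 31 and 23 CAP-D3 peaks in these windows, of which 24 and 17 belonged to the mirror class, that is, peaks more than 1 kb from any WT peak and without CAP-H2. CAP-H2 was sparse, with 2 and 9 peaks in Rb1L/L and 0 and 1 in WT. The third window, on chromosome 5 from 15000001 to 16000000, held 17 members among 18 WT CAP-D3 peaks, with a median score of 129, and here the Rb1L/L list had only 2 CAP-D3 peaks. TFIIIC was common at the members of this window, as 6 and 7 of the 17 were overlapped in Rb1L/L and 10 and 7 in WT. The 3 windows held 58 members, 1.32% of the class, and without the 6 windows of 10 or more members 4295 remained.

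At the members themselves TFIIIC was less frequent than at all autosomal WT CAP-D3 peaks, and no comparison with the rest of the genome was made. It overlapped 579 and 613 of the 4392 members in the 2 Rb1L/L libraries (13.2% and 14.0%), where 19.2% and 19% of all autosomal WT CAP-D3 peaks were overlapped. In the 2 WT libraries it overlapped 449 and 502 members (10.2% and 11.4%), where 29.1% and 27.2% of all WT CAP-D3 peaks were overlapped. The exact 95% intervals were 12.2 to 14.2 and 12.9 to 15.0 in Rb1L/L, and 9.34 to 11.2 and 10.5 to 12.4 in WT. Both Rb1L/L shares were above both WT shares, with means of 13.6 ± 0.55% in Rb1L/L and 10.8 ± 0.85% in WT (SD, n = 2 each) and a log2 ratio of 0.33. The two-sided exact permutation p was 0.333, the smallest that 2 against 2 libraries can give. The order depended on the length of the lists. With the 200350 top-scoring peaks of every library, the members' shares were 9.02% and 8.77% in Rb1L/L and 10.2% and 8.83% in WT, a log2 ratio of −0.10.

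**Figure D3:**
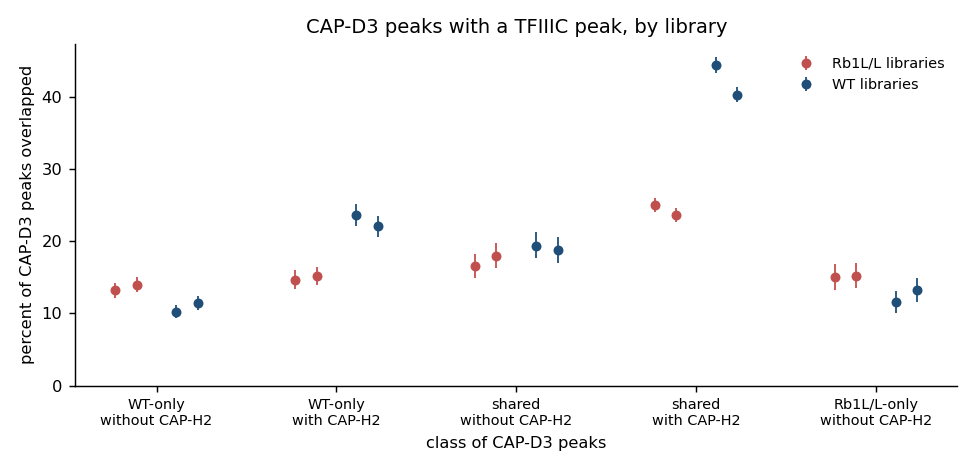
Percent of CAP-D3 peaks overlapped by a TFIIIC peak (y axis) for 5 classes of CAP-D3 peaks, with 1 point per TFIIIC library and its exact 95% binomial interval. In the WT-only class without CAP-H2 both Rb1L/L points (13.2% and 14.0%) are above both WT points (10.2% and 11.4%), and in the 3 other classes of WT CAP-D3 peaks both Rb1L/L points are below both WT points. In the Rb1L/L-only class without CAP-H2 both Rb1L/L points are again above both WT points.

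CAP-D3 peaks of the same WT-only kind that did overlap CAP-H2 showed the opposite order. Of these 3128 peaks, 14.7% and 15.2% had TFIIIC in Rb1L/L and 23.6% and 22.1% in WT, a log2 ratio of −0.61. The 1944 shared peaks without CAP-H2 had TFIIIC in 16.6% and 17.95% in Rb1L/L and in 19.4% and 18.8% in WT (−0.15), and the mirror class had it in 15.0% and 15.2% in Rb1L/L and in 11.5% and 13.2% in WT (0.29). Counting any overlap, which favours wider peaks, members had TFIIIC less often than each of these classes in 4 of 4 libraries. The mean difference was −6.67 ± 6.25 percentage points from WT-only peaks with CAP-H2, −5.97 ± 2.75 from shared peaks without CAP-H2 and −1.54 ± 0.29 from the mirror class (SD, n = 4 libraries). Each had an exact sign-flip permutation p of 0.125, the smallest that 4 libraries allow, and 0.125 after Benjamini-Hochberg adjustment over 6 differences. The direction against the first 2 of these classes did not hold in Rb1L/L when an overlap had to span 50% or more of a CAP-D3 peak. Then 8.72% and 9.49% of members had TFIIIC in Rb1L/L and 7.17% and 7.51% in WT. WT-only peaks with CAP-H2 had 7.45% and 7.70% in Rb1L/L and 15.03% and 12.98% in WT, and shared peaks without CAP-H2 had 8.49% and 8.59% in Rb1L/L and 11.5% and 10.2% in WT. The mean differences were then −2.56 and −1.47 percentage points (exact sign-flip permutation p 0.5 each), while that from the mirror class was −1.32, lower in 4 of 4 libraries. The change between genotypes differed from that of WT-only peaks with CAP-H2 by 0.94 on the log2 scale and from that of shared peaks without CAP-H2 by 0.47 (two-sided exact permutation p 0.333 each, the smallest possible, adjusted 0.800). From the mirror class it differed by 0.03 (exact permutation p 0.667), and this sign turned under 4 alternatives.

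Classes that differ in score were also compared within the 4 score bins of the WT list. These bins are wide, so the scores of 2 classes can still differ inside a bin. Within the second of the 4 score bins of the WT list, from 222 to 358, TFIIIC overlapped 13.4% and 14.8% of 1987 members in Rb1L/L and 9.51% and 10.3% in WT. The 1144 WT-only peaks with CAP-H2 in that range had 16.2% and 16.8% in Rb1L/L and 24.4% and 24.7% in WT. In the third bin, from 358 to 1155, 17.7% and 18.4% of 462 members had TFIIIC in Rb1L/L and 14.1% and 15.6% in WT. The 611 WT-only peaks with CAP-H2 of that range had it in 17.5% and 16.4% in Rb1L/L and in 33.4% and 29.5% in WT, so members were higher in both Rb1L/L libraries and lower in both WT libraries (mean difference −7.73 percentage points, exact sign-flip permutation p 0.5). The 725 shared peaks without CAP-H2 of that range had it in 14.1% and 12.97% in Rb1L/L and in 16% and 14.5% in WT. The lower TFIIIC share of members than of shared peaks did not hold there, as the mean difference was 2.07 percentage points (exact sign-flip permutation p 0.375). It was widest in the lowest bin, where 11.9% and 11.96% of 1939 members had TFIIIC in Rb1L/L and 10.1% and 11.6% in WT, against 20.4% and 21.7% of 235 shared peaks in Rb1L/L and 21.3% and 22.1% in WT.

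Most members had no TFIIIC peak in any library. None was called in the 4 libraries at 3377 members (76.9%, against 55.6% of all autosomal WT CAP-D3 peaks), and one was called in all 4 at 175 (3.98%, against 7.68%). TFIIIC in both Rb1L/L and in no WT library was found at 89 members (2.03%, against 1.36%), and in both WT and no Rb1L/L library at 21 (0.478%, against 5.09%). For WT-only peaks with CAP-H2 these last counts were 37 (1.18%) and 131 (4.19%) of 3128. Both Rb1L/L TFIIIC lists were longer than both WT lists, and these combinations were not counted at equal numbers of peaks. At least 1 library had TFIIIC at 1015 members (23.1%, against 44.4%), and exactly 1 had it at 414 (9.43%, against 17.5%). One library of each genotype had it at 139 (3.16%, against 5.04%) and 3 of the 4 had it at 177 (4.03%, against 7.72%).

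Of the 89 members with TFIIIC in Rb1L/L libraries alone, the strongest by CAP-D3 was on chromosome 8 from 73320214 to 73321015 (CAP-D3 score 929), with TFIIIC scores of 117 and 242 in the 2 Rb1L/L libraries. It was followed by chromosome 1 from 141825937 to 141826302 (CAP-D3 score 834), which was 447 kb from any Rb1L/L CAP-D3 peak and had TFIIIC scores of 210 and 439 in Rb1L/L. Of the 21 with TFIIIC in WT libraries alone, the strongest was on chromosome 16 from 90142414 to 90143274 (CAP-D3 score 846). Its TFIIIC scores were 139 and 166 in WT. H3K27me3 was called there in Rb1L/L library 1 and WT library 1, and an Rb1L/L CAP-H2 peak lay only 0.538 kb away. Over the 5 members with the highest CAP-D3 score of each set, the highest TFIIIC score was 459.5. Higher TFIIIC scores were found at some members where all 4 libraries had a peak, as on chromosome 13 from 56212333 to 56213112, with 3014 and 2721 in Rb1L/L and 208 and 1609 in WT. Others of that set were low, as on chromosome 11 from 53276837 to 53277387, with 93.4 and 216 in Rb1L/L and 150 and 197 in WT. Scores rank peaks within a list and do not measure the difference between lists.

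The TFIIIC share of members was higher where a CAP-H2 peak, which could not overlap the member, lay closer. Among the 266 members with a CAP-H2 peak of either genotype within 1 kb, 19.5% and 20.7% had TFIIIC in Rb1L/L and 19.9% and 20.7% in WT. Among the 663 members with none within 100 kb, 8.90% and 10.1% had it in Rb1L/L and 7.54% and 8.60% in WT. At 1 to 10 kb (1198 members) the shares were 18.2% and 18.3% in Rb1L/L and 11.4% and 14.5% in WT, and at 10 to 100 kb (2265 members) they were 11.04% and 12.01% in Rb1L/L and 9.23% and 9.54% in WT. These differences between distances were not tested. Width moved with TFIIIC as well, from 12.02% and 11.5% in Rb1L/L and 7.95% and 9.10% in WT for the 1572 members under 500 bp to 19.6% and 20.7% in Rb1L/L and 18.6% and 18.8% in WT for the 634 of 600 bp or more. A wider peak meets another peak more often by its length alone. The TFIIIC peaks at members were middling ones of their lists, with a median score percentile of 55.9 and 48.3 in Rb1L/L and of 46.3 and 45.5 in WT.

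H3K27me3 marked a small subset of members, with peaks that were strong and wide. It overlapped 303 and 339 members in the Rb1L/L libraries (6.90% and 7.72%), where 7.31% and 6.38% of all autosomal WT CAP-D3 peaks were overlapped. In the WT libraries it overlapped 205 and 304 members (4.67% and 6.92%), where 4.39% and 6.01% of all were overlapped. The members' shares were near those of the whole list. The means were 7.31 ± 0.58% in Rb1L/L and 5.79 ± 1.59% in WT (SD, n = 2 each; log2 ratio 0.33), and Rb1L/L library 1 was just below WT library 2 (two-sided exact permutation p 0.667). The log2 ratio was 0.08 without WT library 1 and 0.65 without WT library 2, and 0.17 at equal numbers of peaks. Rb1L/L library 1 and WT library 2 share their inputs with the condensin II libraries of the same genotype.

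**Figure D4:**
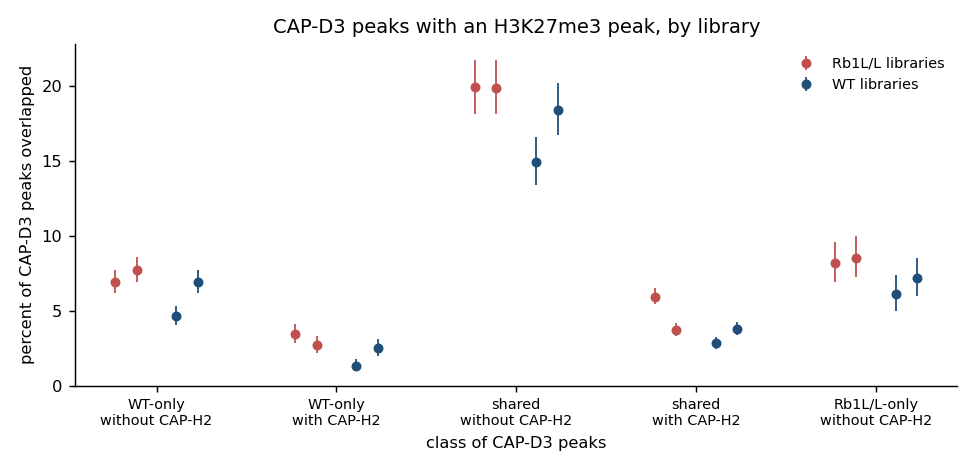
Percent of CAP-D3 peaks overlapped by an H3K27me3 peak (y axis) for 5 classes of CAP-D3 peaks, with 1 point per H3K27me3 library and its exact 95% binomial interval. Shared peaks without CAP-H2 have the highest shares, from 14.9% to 19.9%, the WT-only class without CAP-H2 lies between 4.67% and 7.72%, and WT-only peaks with CAP-H2 lie between 1.31% and 3.42%.

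Among the classes of CAP-D3 peaks, counted over whole classes, absence of CAP-H2 went with more H3K27me3. Shared peaks with CAP-H2 had it in 5.94% and 3.73% in Rb1L/L and in 2.83% and 3.79% in WT, below the members in each library, but not in each score bin. WT-only peaks with CAP-H2 had H3K27me3 in 3.42% and 2.69% in Rb1L/L and in 1.31% and 2.53% in WT, so members were above them by 4.07 ± 0.79 percentage points (SD, n = 4 libraries, higher in 4 of 4). Shared peaks without CAP-H2 had it far more often, in 19.9% and 19.9% in Rb1L/L and in 14.9% and 18.4% in WT, and members were below them by a mean difference of −11.7 ± 1.16 points (lower in 4 of 4). The mirror class had 8.18% and 8.54% in Rb1L/L and 6.09% and 7.17% in WT, a mean difference of −0.95 ± 0.53 points (lower in 4 of 4). With at least 50% of the peak covered this last difference was −0.40 points (exact sign-flip permutation p 0.25), and in WT library 2 members were above the mirror class (5.65% against 5.38%). Counting any overlap, the exact sign-flip permutation p of each mean difference was 0.125, the smallest possible, and 0.125 after adjustment over the 6 differences. The change between genotypes at members differed from that of WT-only peaks with CAP-H2, shared peaks without CAP-H2 and the mirror class by −0.38, 0.10 and 0.02 on the log2 scale (exact permutation p 0.667, 0.667 and 1.000, adjusted 0.800, 0.800 and 1.000). The first ran from −0.63 to −0.12 with each library left out.

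The mean difference from shared peaks varied between score bins of the WT list, with no steady course. It was −4.35 percentage points in the lowest, −10.4 in the second, −3.10 in the third and 31.4 in the highest, from 4 members. In the lowest bin 3.92% and 4.28% of 1939 members had H3K27me3 in Rb1L/L and 2.17% and 3.30% in WT. Of 235 shared peaks without CAP-H2 there, 8.09% and 7.23% had it in Rb1L/L and 7.66% and 8.09% in WT. Of 758 shared peaks with CAP-H2 there, 5.94% and 3.03% had it in Rb1L/L and 3.03% and 3.17% in WT. Members were thus below these shared peaks with CAP-H2 in library 1 of each genotype and above them in library 2. Within the second score bin of the WT list, H3K27me3 overlapped 6.79% and 7.90% of the 1987 members in Rb1L/L and 4.73% and 7.35% in WT, and 19.03% and 18.7% of 268 shared peaks without CAP-H2 in Rb1L/L and 13.8% and 16.8% in WT. Within the third score bin of the WT list, H3K27me3 overlapped 19.5% and 20.996% of the 462 members in Rb1L/L and 14.5% and 19.9% in WT, and 23.2% and 24.1% of the 725 shared peaks without CAP-H2 in Rb1L/L and 17.4% and 22.6% in WT. The 611 WT-only peaks with CAP-H2 of that range were lower, at 6.22% and 5.24% in Rb1L/L and 2.45% and 4.42% in WT. Inside the class, the H3K27me3 share was highest at the highest CAP-D3 scores, with no steady rise below them. When the members were put into 4 bins by score, it went from 4.19% and 4.56% in Rb1L/L and 2.55% and 3.01% in WT in the weakest bin to 14.7% and 16.1% in Rb1L/L and 11.1% and 15.6% in WT in the strongest. In the second bin it was 3.55% and 4.19% in Rb1L/L and 1.82% and 3.73% in WT. Of the 175 members with a score of at least 500, 22.9% and 22.3% had it in Rb1L/L and 20% and 24.6% in WT. TFIIIC went over the same bins from 12.9% and 13.0% in Rb1L/L and 11.3% and 13.2% in WT to 16.6% and 17.1% in Rb1L/L and 12.3% and 13.2% in WT.

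**Figure D5:**
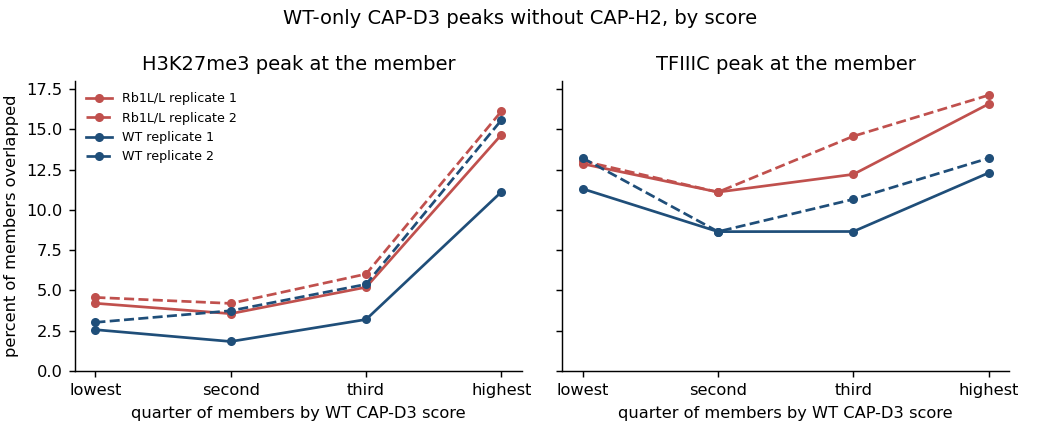
Percent of members overlapped by H3K27me3 (left) or TFIIIC (right) in 4 bins of the 4392 members ordered by WT CAP-D3 score, with 1 line per library. H3K27me3 shares are between 1.82% and 6.01% in the 3 lower bins and between 11.1% and 16.1% in the highest, and TFIIIC shares stay between 8.64% and 17.1% throughout.

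The H3K27me3 peaks at members were among the strongest of their lists. Their median score percentile was 90.1 and 90.4 in Rb1L/L and 87.9 and 91.0 in WT, and their median width 1700 and 1766 bp in Rb1L/L and 1412.5 and 1694 bp in WT, where the autosomal lists had medians of 640 and 646 bp in Rb1L/L and of 631 and 628 bp in WT. A wide peak meets other peaks more often by its length alone. The other classes without CAP-H2 shared this trait. The percentile was 92.2 and 95.1 in Rb1L/L and 88.7 and 93.7 in WT at shared peaks without CAP-H2, and 89.5 and 90.7 in Rb1L/L and 87.3 and 93.9 in WT at the mirror class. At WT-only peaks with CAP-H2 it was 44.6 and 68.9 in Rb1L/L and 48.4 and 43.7 in WT. At shared peaks with CAP-H2 it was 38.6 and 88.0 in Rb1L/L and 80.0 and 70.8 in WT, so high percentiles were not confined to the classes without CAP-H2. H3K27me3 was called at 156 members in all 4 libraries (3.55%, against 3.17% of all autosomal WT CAP-D3 peaks) and at 3912 in none (89.1%, against 89.5%). It was called in both Rb1L/L and no WT library at 27 members (0.615%, against 0.564%) and in both WT and no Rb1L/L library at 7 (0.159%, against 0.122%), shares near those of the whole list. At least 1 library had it at 480 members (10.9%, against 10.5%), exactly 1 at 184 (4.19%, against 4.46%), 1 of each genotype at 43 (0.979%, against 0.861%) and 3 of the 4 at 63 (1.43%, against 1.29%).

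The 156 members with H3K27me3 throughout had a median CAP-D3 score of 325, against 228 for those without any. After the regions on chromosomes 4 and 15 given above, the strongest was on chromosome 13 from 49343456 to 49344204 (CAP-D3 score 1051, H3K27me3 scores 2884 and 2091 in Rb1L/L and 1717 and 1618 in WT). Next came chromosome 5 from 145306251 to 145307511 (CAP-D3 score 999.95), which was 187 kb from the nearest Rb1L/L CAP-D3 peak and had H3K27me3 scores of 2397 and 1398 in Rb1L/L and of 1852 and 2253 in WT. Of the 156, 5 also had TFIIIC in all 4 libraries, among them chromosome 11 from 53276837 to 53277387. That is near the share over all members, where 175 of 4392 (3.98%) had it. Neither TFIIIC nor H3K27me3 was called in any of the 8 libraries at 3023 members, which is 68.8% of the class, where 49.3% of all autosomal WT CAP-D3 peaks had neither.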

How the data were processed

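Per the submitters' processing notes, Bowtie2 2.3.0 was the aligner, mm9 the genome build and MACS 1.4.0rc2 the peak caller, with settings not given in the sources used here. The authors deposited 1 peak list per library, with a score per peak and no header; this program writes −10 times the log10 of a p-value there. Scores depend on depth and input and were used only within a list. Read numbers are unknown. Overlap meant at least 1 bp. CAP-D3 peaks were classed by the other genotype (gap of at most 1 kb) and by CAP-H2 of either genotype. Shares were compared between genotypes by exact permutation over libraries and between classes by exact sign-flips over the 4 libraries of an antibody, with Benjamini-Hochberg adjustment over 6 differences (Python 3.11.15, scipy 1.17.1). The code was tested on simulated peaks. Named regions are the 12 highest-scoring members, the 5 highest-scoring of each TFIIIC or H3K27me3 combination, those next to the 1 kb limit, and the 3 windows of 1 Mb with the most members; only the leading ones are given. The members, classes and tests were chosen with earlier results of these data known. Input samples have no list here. No genome or annotation of mm9 was used, so genes and sequences are not given. Positions are 1-based.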

Additional observations from a re-analysis of the deposited data

Results flagged for a closer look

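The TFIIIC share went opposite ways between genotypes in the members and in the 3 other classes of WT CAP-D3 peaks. In the members both Rb1L/L libraries were above both WT libraries. In WT-only peaks with CAP-H2, in shared peaks without CAP-H2 and in shared peaks with CAP-H2 both Rb1L/L libraries were below both WT libraries. The rise was not particular to the members. The mirror class of Rb1L/L peaks without CAP-H2 also had both Rb1L/L libraries above both WT libraries (log2 ratio 0.29, against 0.33 at members). The change at members exceeded that of the 3 other classes of WT CAP-D3 peaks by 0.94, 0.47 and 1.13 on the log2 scale. The exact permutation p was 0.333 for the first and for the second, the smallest that 2 against 2 libraries can give, and the third difference was not tested. Both Rb1L/L TFIIIC lists are longer than both WT lists. At equal numbers of peaks the members' shares were 9.02% and 8.77% in Rb1L/L and 10.2% and 8.83% in WT, and those of shared peaks with CAP-H2 were 15.1% and 13.9% in Rb1L/L and 44.4% and 30.4% in WT. The members' log2 ratio was then −0.10, so the opposite directions no longer held. The change at members still exceeded that of WT-only peaks with CAP-H2 by 0.99 and that of shared peaks without CAP-H2 by 0.51.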

How the results depend on the processing

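Of 261 recomputed values of 16 results, 244 kept their direction or, for counts and window shares, stayed close; none could pass 0.05 at these numbers of libraries. The number of members was 4034 to 4594. With equal numbers of top-scoring peaks the log2 TFIIIC ratio of members turned to −0.10 (exact permutation p 0.667; 0.333 to 0.667 over all alternatives). For TFIIIC, members minus WT-only peaks with CAP-H2 (−6.67 points) was −2.56 at 50% coverage and −2.50 by midpoints (exact sign-flip permutation p 0.5 each), −5.35 at equal peak numbers (0.25), −4.44 without WT library 1, −3.69 within the lowest score bin and −19.6 within the highest, from 4 members. Members minus shared peaks without CAP-H2 (−5.97 points) was −1.47 at 50% coverage, −1.81 by midpoints (0.5 each) and −3.33 with peaks set to 500 bp (0.125). For H3K27me3, members minus the mirror class (−0.95 points) was −0.40 at 50% coverage, −0.43 by midpoints and −0.69 at a score of at least 100 in every list (exact p 0.25 each), and members minus WT-only peaks with CAP-H2 (4.07 points) was 1.81 within the lowest and 14.1 within the third score bin. The log2 H3K27me3 ratio of members (0.33) ran from 0.079 to 0.65 with each library left out. Members minus shared peaks without CAP-H2 turned for TFIIIC within the third score bin of the WT list (2.07 points) and for H3K27me3 within the highest (31.4 points, from 4 members). Against the mirror class, the TFIIIC difference of genotype changes (0.03) turned at 50% coverage (−0.037), equal peak numbers (−0.012), midpoints (−0.035) and a score of at least 100 in every list (−0.033). The H3K27me3 one (0.02) turned at a CAP-D3 score of at least 100 (−0.0088), 50% coverage (−0.071), midpoints (−0.061) and a score of at least 100 (−0.036), and ran from −0.15 to 0.19 with each library left out. Against shared peaks without CAP-H2, the H3K27me3 one (0.10) turned at equal peak numbers (−0.00029) and within the highest and the third score bin (−0.30 and −0.0033), and ran from −0.034 to 0.23 with each library left out. Within the lowest score bin it was 0.66. Against WT-only peaks with CAP-H2 the H3K27me3 one (−0.38) ran from −0.63 to −0.12 with each library left out and was −0.016 within the lowest score bin. The TFIIIC ones (0.94 and 0.47) were 0.60 and 0.18 in that bin. The cause was not tested. Within the highest bin 3 other genotype changes gave no value, as a share was 0, and score bins of the WT list were not applied to Rb1L/L peaks. Leaving out windows of 10 or more members was chosen after seeing the data.

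Replicate numbers are not said to pair libraries, although deviations of same-numbered libraries over 1 Mb windows correlated (0.29 for TFIIIC and 0.29 for H3K27me3). With the replicate block, the members' log2 ratio was 0.33 for TFIIIC and 0.36 for H3K27me3 (exact sign-flip permutation p 0.5 each, the smallest that 2 pairs allow), and no direction turned. Peak lists without read numbers limit every share, since longer lists overlap more.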

Other observations

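A window on chromosome 8 from 126000001 to 127000000, chosen after its values were seen, held 13 members of another kind than those on chromosomes 4 and 5. Their median CAP-D3 score was 357, and the window had 28 CAP-D3 peaks in Rb1L/L and 58 in WT, and 37 CAP-H2 peaks in Rb1L/L and 52 in WT. H3K27me3 overlapped 1 and 1 of the 13 members in the Rb1L/L libraries and 7 and 13 in the WT libraries. The whole window held 39 and 44 H3K27me3 peaks in Rb1L/L and 18 and 43 in WT, so the mark was not missing from it in Rb1L/L. TFIIIC overlapped none of the 13 in any of the 4 libraries, although the window held 321 and 327 TFIIIC peaks in Rb1L/L and 231 and 276 in WT. Of the 3 members just over 1 kb from an Rb1L/L CAP-D3 peak, those from 126102995 to 126103741 and from 126137080 to 126137818 lay in this window. The WT CAP-D3 library and H3K27me3 WT library 2 share an input, per the labels, and its part in these values was not tested.

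On chromosome 6 from 130000001 to 131000000, also chosen after its values were seen, all 9 WT CAP-D3 peaks were members. No CAP-H2 and no H3K27me3 peak of any library lay in that window, which had 1 CAP-D3 peak in Rb1L/L, and between 22 and 29 TFIIIC peaks per library.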
